A study of Mus musculus with 56 samples.

Results

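The comparison described here set regulatory T cells (Tregs) from visceral adipose tissue (VAT) of mice fed HFD for 4 weeks against Tregs from the same tissue of mice fed NCD for 4 weeks. Its members are all the count-table libraries titled for VAT, week 4 and either diet, which are HFD replicates 2 and 3 and NCD replicates 1, 2 and 3, 5 of the 56 libraries of the series. The mice were vTreg53 Tg+ on C57BL/6, so both diet groups carried a transgenic T cell receptor of a single VAT Treg clonotype, and the diets began at 12 weeks of age. Clonotype-positive Tregs were sorted in 2 rounds, with 1000 cells per library, and polyadenylated RNA was amplified and sequenced. The design text calls the donors of the cells recipient mice without describing a transfer, and no label says whether the libraries of a diet came from separate mice. The p-values below therefore measure the spread between libraries, which may be technical, and results for 1 receptor clonotype need not hold for other VAT Tregs.

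Tregs restrain immune responses, and the transcription factor Foxp3 maintains their identity. Those resident in VAT depend on Pparg, carry the IL-33 receptor encoded by Il1rl1, express tissue genes such as Klrg1, Gata3, Areg and Il10, and are known to restrain adipose inflammation. Resting Tregs of lymphoid organs instead express homing genes such as Ccr7 and the transcription factor Tcf7.

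The deposited counts summed to 3319873 and 4222713 in the HFD libraries, and to 5869790, 4623727 and 3688451 in the NCD libraries. At these depths 3 counts correspond to 0.939 and 0.759 CPM, counts scaled to a common library size, in the HFD libraries and to 0.508, 0.647 and 0.838 CPM in the NCD libraries. Fewer genes had a count in the HFD libraries (16769 and 18232) than in the NCD libraries (19096, 19349 and 18454), and HFD replicate 2 was lowest in both depth and genes. It also stood apart in a principal component analysis, with a score of 67.5 on the first component, against 11.2 for HFD replicate 3 and -33.0 to -18.8 for the NCD libraries. The count of called genes, the 3 called genes and the main gene lists are therefore also given without it.

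The labelled cell type was met by its markers. Foxp3 had 1059 and 1178 CPM in the HFD libraries and 941, 938 and 985 CPM in the NCD libraries. Il2ra, Ikzf2, Cd4 and Cd3e were detected in all 5 libraries, as were the VAT markers Pparg, Il1rl1, Klrg1, Gata3, Areg and Ccr2. The variable segment Trbv2 took 80.3 and 92.0% of the beta-chain variable counts in the HFD libraries and 80.0, 83.6 and 96.3% in the NCD libraries. Adipocyte markers summed to 1.51 to 5.21 CPM in HFD libraries and 1.73 to 6.98 CPM in NCD libraries. Of these 12 markers, 6 were at 0 in all 5 libraries, Adipoq and Lep among them. B cell markers summed to 734 to 812 CPM in HFD libraries and 890 to 7910 CPM in NCD libraries, with 1 of 16 markers, Pax5, at 0 in all 5. The light-chain gene Igkc had 11 and 15 counts in the HFD libraries, against 9, 9214 and 2045 counts in NCD replicates 1, 2 and 3, so immunoglobulin RNA was high in NCD replicates 2 and 3 alone. Markers of NK and CD8 T cells summed to 122 to 149 CPM in HFD libraries and 162 to 221 CPM in NCD libraries, with 1 of 11 at 0 in all 5.

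After 4 weeks the diets differed at 3 single genes, Ctla4, Echdc2 and Parp8, in the test used here. Of 14164 genes tested with edgeR's quasi-likelihood test, 3 passed a Benjamini-Hochberg adjusted p under 0.05, which is 0.0212% of the genes: Ctla4 and Echdc2 were higher with HFD (0.0141%), and Parp8 was lower (0.00706%). At an unadjusted p under 0.05 there were 707 genes higher with HFD (4.99%) and 678 lower (4.79%), together 9.78% of the genes tested. The HFD and NCD libraries did not overlap in CPM for 1884 genes higher with HFD (13.3%) and 1886 lower with HFD (13.3%). Both HFD libraries lay above all 23 other VAT libraries, NCD at week 4 included, for 218 genes (1.54%). They lay below all 23 for 94 genes (0.664%). The median log2 fold change over all genes was -0.02, and 80% of the genes lay between -0.92 and 0.56. In these bulk samples a change in the make-up of the sorted cells and a change in RNA per cell cannot be told apart. Leaving out a library changed the count of called genes, which was 0 when HFD replicate 2 was dropped, 0 when NCD replicate 1 was dropped and 6 when HFD replicate 3 was dropped. The count also varied with the method. It was 2 with RLE normalization, 34 of 11985 tested when only the 5 libraries were fitted, 61 with DESeq2 and 115 of 37419 tested with no filter on low counts.

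**Figure D1:**
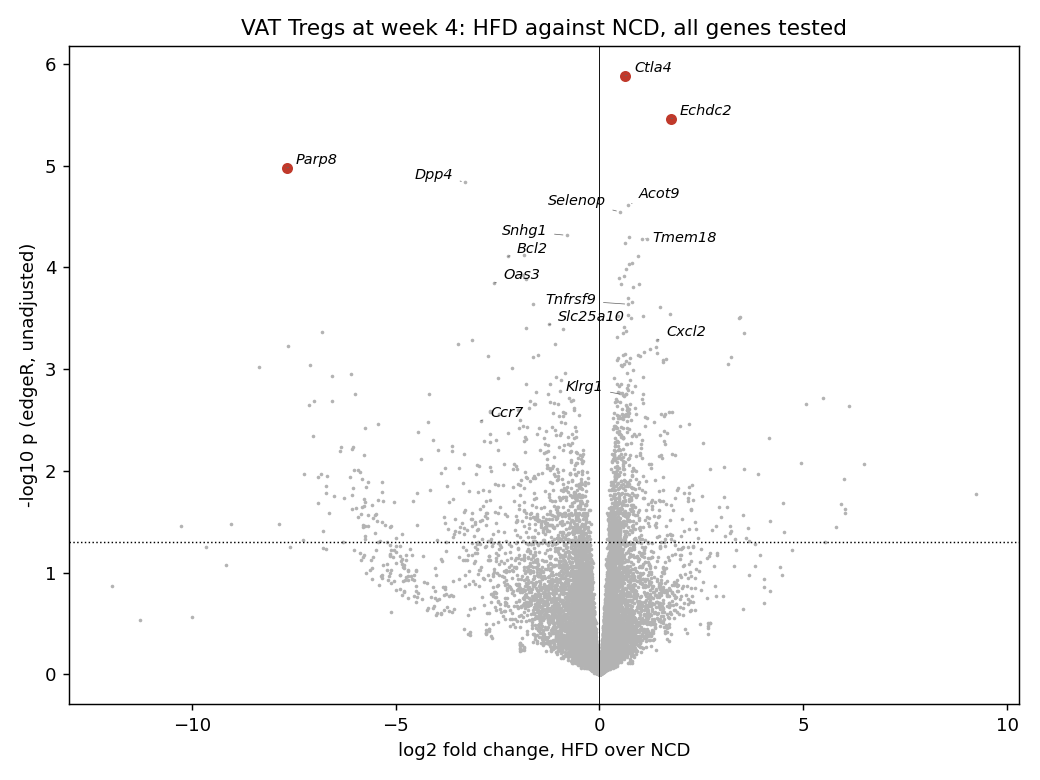
Log2 fold change of HFD over NCD (horizontal axis) against the negative log10 of the unadjusted p of edgeR's quasi-likelihood test (vertical axis) for the 14164 genes tested, 1 point per gene. Ctla4, Echdc2 and Parp8 are the 3 genes past an adjusted p under 0.05, and Parp8 stands far to the left because both HFD libraries had no count for it.

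The promoters of the 3 called genes are shown because these genes carry the result. Each stretch is the 250 bases before the RefSeq start of the gene in GRCm38.p6, written in the direction of the gene, and capitals mark the core motif of NFAT, a factor activated by T cell receptor signals (GGAAA or its reverse complement TTTCC).
Ctla4 promoter, chr1:60908775-60909024, plus strand: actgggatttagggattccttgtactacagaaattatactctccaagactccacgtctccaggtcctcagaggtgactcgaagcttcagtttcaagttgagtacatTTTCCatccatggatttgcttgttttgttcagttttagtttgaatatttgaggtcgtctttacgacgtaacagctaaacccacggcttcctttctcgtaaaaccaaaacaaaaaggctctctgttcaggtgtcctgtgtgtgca
Echdc2 promoter, chr4:108165187-108165436, plus strand: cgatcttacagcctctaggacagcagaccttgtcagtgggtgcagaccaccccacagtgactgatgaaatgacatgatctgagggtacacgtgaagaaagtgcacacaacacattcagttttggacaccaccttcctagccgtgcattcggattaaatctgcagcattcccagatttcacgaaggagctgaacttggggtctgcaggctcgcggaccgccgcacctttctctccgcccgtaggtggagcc
Parp8 promoter, chr13:117025532-117025781, minus strand: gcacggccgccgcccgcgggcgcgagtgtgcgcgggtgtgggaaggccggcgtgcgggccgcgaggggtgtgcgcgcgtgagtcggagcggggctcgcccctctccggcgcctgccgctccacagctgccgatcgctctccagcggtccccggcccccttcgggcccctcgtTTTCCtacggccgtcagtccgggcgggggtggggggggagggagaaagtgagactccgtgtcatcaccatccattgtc
The NFAT core occurred 1 time in the Ctla4 promoter, 1 time in the Parp8 promoter and 0 times in the Echdc2 promoter. Over 32851 mouse promoter windows of this length, 55.6% held at least 1 match on either strand. An AP-1 site (TGANTCA) and a PPAR half-site (AGGTCA), searched on both strands, occurred in none of the 3 and in 6.7% and 14% of all windows. Base composition differed between the 3 promoters, with a GC content of 42.4% for Ctla4, 54.0% for Echdc2 and 74.8% for Parp8.

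Ctla4 encodes the inhibitory receptor through which Tregs withhold costimulation from other T cells, and the gene lies at chr1:60887000-60915832 in mm10. This span is that of GENCODE, and the promoter shown above, placed by the RefSeq start, lies inside it. It had 3353 and 3249 CPM in the HFD libraries, against 1999, 2241 and 2165 CPM in the NCD libraries. The groups did not overlap, the HFD libraries differed from each other by less than the NCD libraries did, and both were above the 1584 to 2763 CPM of the other 20 VAT libraries. The means were 3301 ± 73.0 CPM with HFD and 2135 ± 124 CPM with NCD (SD, n = 2 and 3). Ctla4 rose 1.55-fold with HFD, a log2 fold change of 0.63 ± 0.10 (SE, adjusted p = 0.0186 by edgeR). The log2 fold change was 0.61 without HFD replicate 2 (adjusted p = 0.461), 0.64 without HFD replicate 3 (adjusted p = 0.0647) and 0.58 without NCD replicate 1 (adjusted p = 0.0998), and the call was lost in each case. An annotated pseudogene, Rpl18-ps1, lies within the Ctla4 locus.

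Echdc2 encodes a mitochondrial protein of the enoyl-CoA hydratase family, whose other members act in fatty acid oxidation, and the gene lies at chr4:108165437-108179308. It had 44.1 and 27.3 CPM in the HFD libraries, against 9.15, 9.93 and 12.9 CPM in the NCD libraries. Both HFD libraries were above all 3 NCD libraries, HFD replicate 2 being the higher, and the other 20 VAT libraries spanned 11.4 to 29.7 CPM. NCD replicates 1 and 2 lay below this range, HFD replicate 3 lay inside it and HFD replicate 2 lay above it. The means were 35.7 ± 11.9 CPM with HFD and 10.6 ± 1.95 CPM with NCD (SD, n = 2 and 3). Echdc2 rose by 1.75 ± 0.30 on the log2 scale (SE, adjusted p = 0.0245 by edgeR). The log2 fold change was 1.37 without HFD replicate 2 (adjusted p = 0.559), 1.65 without NCD replicate 1 (adjusted p = 0.158) and 1.71 without NCD replicate 2 (adjusted p = 0.0675).

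Parp8 encodes a member of the poly-ADP-ribose polymerase family that transfers single ADP-ribose units, and the gene lies on the minus strand at chr13:116854820-117025537. It had 0 counts in both HFD libraries, against 32, 34 and 10 counts in the NCD libraries, which are 5.42, 7.34 and 2.79 CPM. The other 20 VAT libraries had 1.19 to 38.9 CPM. Parp8 fell with HFD and was at least 12.4-fold lower, taking 3 counts over the HFD group (0.42 CPM) as the floor against the NCD mean of 5.19 CPM (adjusted p = 0.0497 by edgeR). The call rested on few counts and lay at the threshold: the adjusted p was 0.052 with RLE normalization, 0.271 with voom, 0.559 without HFD replicate 2 and 0.157 without HFD replicate 3. Of the 15 members of the polymerase family tested, 1, Parp8 itself, was called lower and 0 higher, against 0.00706% and 0.0141% of all genes. The median log2 fold change was -0.14 (0.05 without HFD replicate 2). Parp3, which acts at DNA breaks, had 50.4 and 60.0 CPM with HFD, against 40.7, 36.9 and 48.6 CPM with NCD (adjusted p = 0.558).

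**Figure D2:**
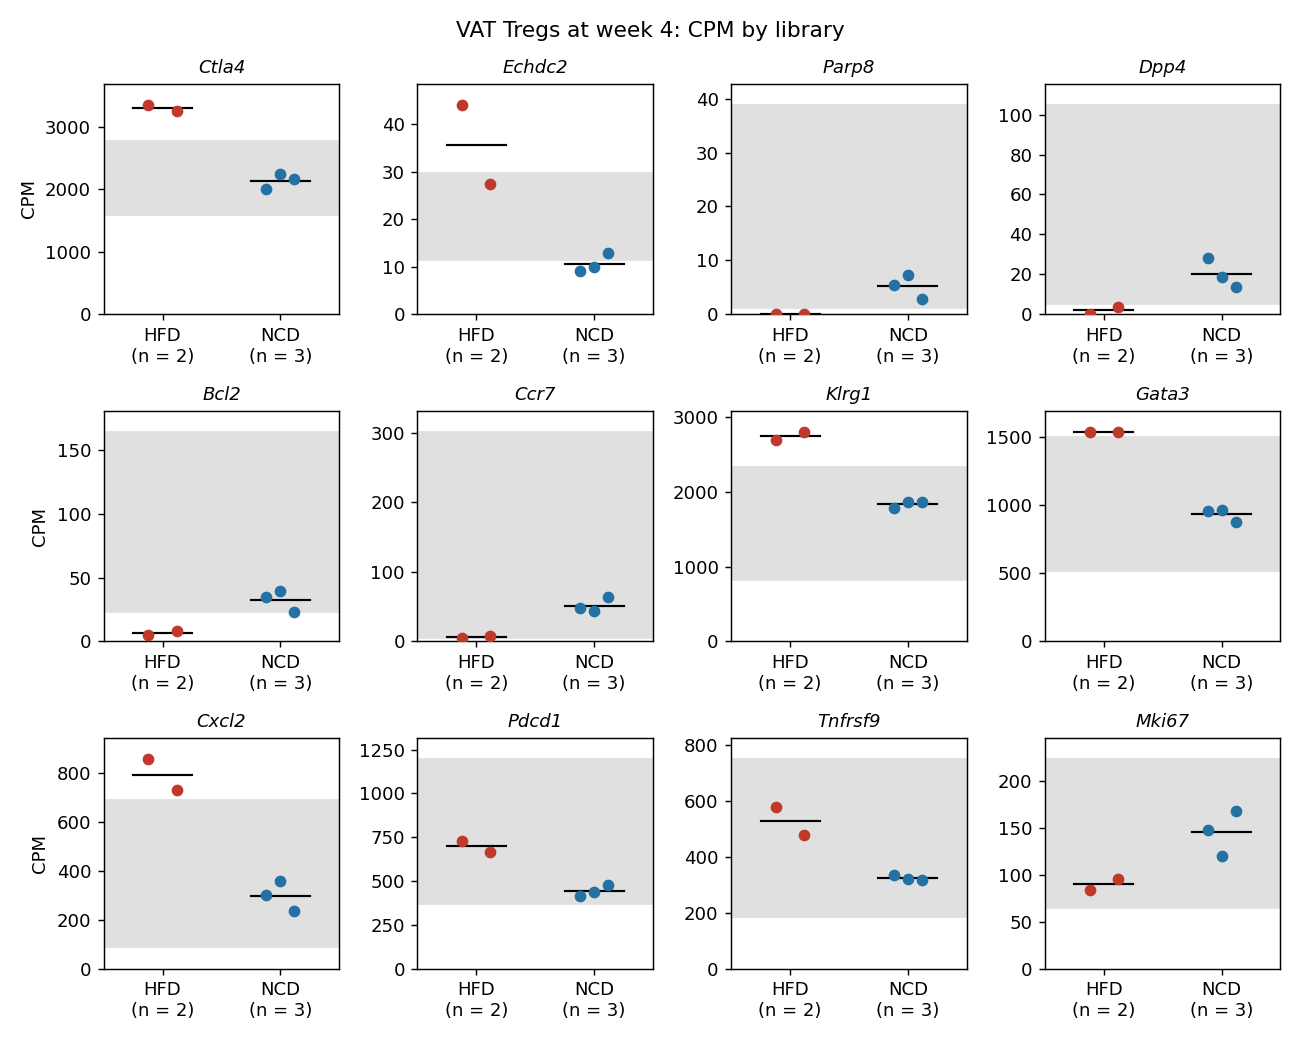
CPM in each library (vertical axes, linear from 0) for 12 genes, with HFD libraries left of NCD libraries, a line at each group mean and a grey band for the range of the other 20 VAT libraries. Ctla4 at 3353 and 3249 CPM with HFD lies above the band and Parp8 at 0 CPM with HFD lies below it.

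A further 22 genes had an adjusted p between 0.05 and 0.1, and none of them is called changed here. Acot9, a mitochondrial acyl-CoA thioesterase, had 217.8 and 197.3 CPM with HFD, against 124, 118 and 139 CPM with NCD (log2 fold change 0.71 ± 0.14 SE, adjusted p = 0.0672). Lamp2, a protein of the lysosomal membrane, had 174 and 177 CPM with HFD, against 122, 103 and 114 CPM with NCD (adjusted p = 0.0740). Tcn2, the cobalamin carrier transcobalamin, had 98.9 and 95.1 CPM with HFD, against 38.0, 59.8 and 53.9 CPM with NCD (adjusted p = 0.0789). In each of these the lowest HFD library was above the highest NCD library. Selenop, the secreted selenium carrier, had 821 and 780 CPM with HFD, against 512, 641 and 544 CPM with NCD (adjusted p = 0.0672). Swap70, which links membrane signals to actin, had 348 and 272 CPM with HFD, against 176, 214 and 207 CPM with NCD (adjusted p = 0.0865). The transcriptional regulator Id2, which lies outside the rule for named genes and was chosen after its values were seen, had 829 and 748 CPM with HFD, against 454, 465 and 407 CPM with NCD (adjusted p = 0.0891).

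Among genes with lower values in the HFD libraries, Bcl2 had the log2 fold change furthest below 0 of the 12 that the rule for lower genes selected. This inhibitor of apoptosis had 5.32 and 8.35 CPM with HFD, against 34.9, 39.9 and 23.2 CPM with NCD (log2 fold change -2.24 ± 0.47 SE, adjusted p = 0.0789). Both HFD libraries lay below the 23.2 to 164 CPM of the other 20 VAT libraries. Bcl2l2, another inhibitor of apoptosis, had 12 and 22 counts with HFD, against 3, 3 and 0 counts with NCD (adjusted p = 0.121), so its values are near the floor. Over the 14 BCL2 family members tested, 1 reached an unadjusted p under 0.05 in each direction (7.14%, against 4.99% of all genes higher and 4.79% lower). Dpp4, a surface peptidase, lies outside the rule and was chosen after its values were seen. It had 1 and 14 counts with HFD, against 167, 87 and 49 counts with NCD, or 0.313 and 3.54 CPM against 28.3, 18.8 and 13.7 CPM (adjusted p = 0.0515). Traf5, an adaptor of TNF family receptors, had 22.2 and 25.8 CPM with HFD, against 55.8, 39.5 and 58.7 CPM with NCD (adjusted p = 0.162). Tnf had 73.5 and 87.8 CPM with HFD, against 175, 130 and 141 CPM with NCD (adjusted p = 0.139).

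The VAT-Treg programme had more members with high HFD values than the background, although no member was called. Of its 19 members tested, 6 reached an unadjusted p under 0.05 with higher HFD values (31.6%, against 4.99% of all genes) and 0 with lower values. For 10 members (52.6%, against 13.3% of all genes) the HFD libraries lay above all NCD libraries, and for 1 member, Pparg, they lay below. The median log2 fold change of the list was 0.34, against -0.02 for all genes, and it was 0.18 without HFD replicate 2. Summed over the list, the libraries had 15680 and 15120 CPM with HFD, against 10820, 10810 and 10220 CPM with NCD. The count of 6 became 3 without HFD replicate 3 and 4 without HFD replicate 2, and it was 10 with voom and 10 when only the 5 libraries were fitted.

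Of the secreted factors in the programme, the chemokine gene Cxcl2 had 857 and 730 CPM with HFD, against 299, 360 and 234 CPM with NCD (log2 fold change 1.41 ± 0.33 SE, adjusted p = 0.153). Areg, the growth factor amphiregulin, had 1862 and 1867 CPM with HFD, against 1175, 1290 and 1447 CPM with NCD (adjusted p = 0.644). Il10, an anti-inflammatory cytokine, had 1089 and 862 CPM with HFD, against 527, 377 and 368 CPM with NCD (adjusted p = 0.511). For all 3 the groups did not overlap. Cxcl2 and Areg were among the 1.54% of genes with both HFD libraries above every other VAT library. The highest values of the other 20 VAT libraries were 691 and 1800 CPM. Of the receptors, Klrg1, an inhibitory receptor of tissue Tregs, had 2687 and 2799 CPM with HFD, against 1778, 1862 and 1859 CPM with NCD (log2 fold change 0.58 ± 0.17 SE, adjusted p = 0.228). The chemokine receptor gene Ccr2 had 2071 and 2203 CPM with HFD, against 1721, 1439 and 1277 CPM with NCD (adjusted p = 0.321). Il1rl1 had 995 and 934 CPM with HFD, against 807, 773 and 699 CPM with NCD (adjusted p = 0.696).

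The transcription factors of the programme did not move together. Gata3 had 1540 and 1538 CPM with HFD, against 955, 966 and 878 CPM with NCD (log2 fold change 0.72 ± 0.26 SE, adjusted p = 0.383). Pparg had 85.1 and 78.2 CPM with HFD, against 94.4, 122 and 109 CPM with NCD (log2 fold change -0.41 ± 0.35 SE, adjusted p = 0.753). Irf4 and Prdm1, which drive effector Treg differentiation, overlapped between the diets. Prdm1 had 184 and 117 CPM with HFD, against 136, 125 and 158 CPM with NCD. The scavenger receptor gene Cd36, a fatty acid transporter, had 0.939 and 3.29 CPM with HFD, against 6.78, 1.73 and 2.79 CPM with NCD, and its groups overlapped.

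Beyond Ctla4, other genes of Treg identity and of inhibitory or costimulatory receptors had high HFD values without being called. Of 16 identity genes tested, 7 reached an unadjusted p under 0.05 with higher HFD values (43.8%, against 4.99% of all genes) and 0 with lower values, and the median log2 fold change was 0.31 (0.26 without HFD replicate 2). Of 13 receptors of the CD28 and coinhibitory families, 5 did so (38.5%) and 0 with lower values, with a median of 0.28, which was 0.12 without HFD replicate 2. Both lists hold Ctla4 and Tigit, and the counts of 7 and 5 both include Ctla4, which was called. The count of 5 became 2 without HFD replicate 2 and 3 without NCD replicate 2. Pdcd1, which encodes the inhibitory receptor PD-1, had 731 and 667 CPM with HFD, against 415, 438 and 478 CPM with NCD (log2 fold change 0.65 ± 0.16 SE, adjusted p = 0.139). Icos, a costimulatory receptor gene, had 933 and 818 CPM with HFD, against 736, 651 and 664 CPM with NCD (adjusted p = 0.312). Lag3, another inhibitory receptor gene, had 85.7 and 64.3 CPM with HFD, against 39.7, 32.2 and 30.4 CPM with NCD (adjusted p = 0.457).

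Receptors of the TNF family that sustain Tregs also had higher values in both HFD libraries than in all NCD libraries. Tnfrsf9, which encodes 4-1BB, had 580 and 480 CPM with HFD, against 335, 320 and 318 CPM with NCD (log2 fold change 0.71 ± 0.17 SE, adjusted p = 0.113). Tnfrsf4, which encodes OX40, had 1298 and 1185 CPM with HFD, against 858, 756 and 871 CPM with NCD (adjusted p = 0.169). Tnfrsf18, which encodes GITR, had 1408 and 1404 CPM with HFD, against 1070, 923 and 1009 CPM with NCD (adjusted p = 0.216). Over the 15 receptors and ligands of the family tested, 4 reached an unadjusted p under 0.05 with higher HFD values (26.7%, against 4.99% of all genes) and 0 with lower values. The median log2 fold change was -0.10. This median had no stable sign, running from -0.17 without HFD replicate 2 to 0.12 without NCD replicate 3. Itgb8, an integrin chain that activates TGF-beta, had 138 and 79.2 CPM with HFD, against 66.6, 70.4 and 48.9 CPM with NCD (adjusted p = 0.113). Not all identity genes followed this order. Lrrc32, the receptor that holds latent TGF-beta on Tregs, had 47.3 and 33.1 CPM with HFD, against 65.8, 63.0 and 83.2 CPM with NCD (adjusted p = 0.512). Entpd1 and Nt5e, the ectoenzymes that make adenosine, were also lower in both HFD libraries than in all NCD libraries, without passing the test (adjusted p = 0.519 and 0.607).

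Genes of the IL-2 receptor and its STAT5 pathway mostly had higher HFD values, with Bcl2 as the exception at an unadjusted p under 0.05. Of 13 tested, 10 had a log2 fold change above 0. At an unadjusted p under 0.05 there were 4 with higher HFD values (30.8%, against 4.99% of all genes) and 1, Bcl2, with lower values (7.69%, against 4.79%). The median log2 fold change was 0.27, and 0.10 without HFD replicate 2. Il2ra had 1154 and 1130 CPM with HFD, against 829, 827 and 728 CPM with NCD (adjusted p = 0.261). Il2rg, the shared cytokine receptor chain, had 713 and 850 CPM with HFD, against 620, 605 and 610 CPM with NCD (adjusted p = 0.200). Socs2, a feedback inhibitor induced by STAT5, had 189 and 271 CPM with HFD, against 171, 155 and 135 CPM with NCD (adjusted p = 0.273). Genes of T cell receptor signalling had a median log2 fold change of 0.13 and 0 of 16 at an unadjusted p under 0.05 in either direction, against 2 higher when NCD replicate 1 was dropped. Of these 16, 13 had a log2 fold change above 0 (81.2%, against 47.7% of all genes). Both HFD libraries lay above all NCD libraries for 6 (37.5%) and below them for 1 (6.25%), against 13.3% of all genes in each direction. Of 14 early genes induced by the receptor, 1 reached an unadjusted p under 0.05, with lower HFD values (7.14%, against 4.79% of all genes). This was Egr2, which had 3.76 and 6.58 CPM with HFD, against 9.15, 15.8 and 11.5 CPM with NCD (adjusted p = 0.379).

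**Figure D3:**
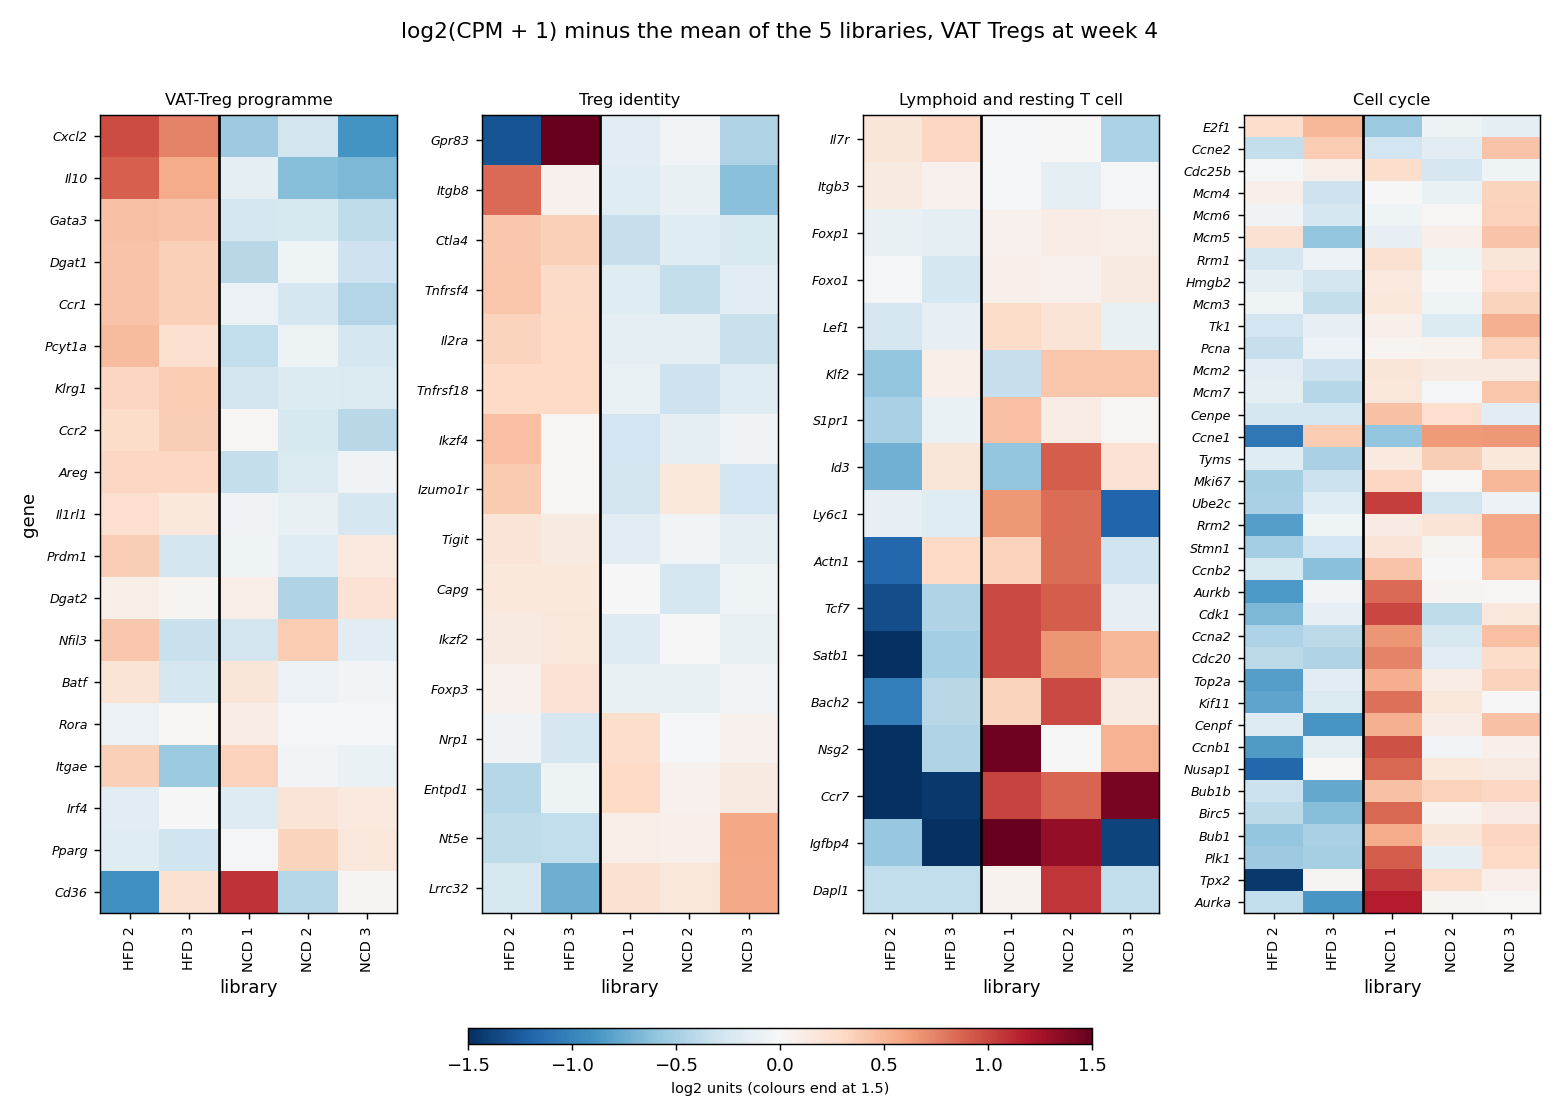
Log2(CPM + 1) of each gene minus its mean over the 5 libraries (colour scale, red above the mean and blue below) for members of 4 gene lists, leaving out 1 lymphoid gene that is not reported here, with the HFD libraries in the left columns and the NCD libraries in the right columns. Most rows of the VAT-Treg programme and the Treg identity list are red in both HFD columns, and most rows of the lymphoid list are blue there. Of the 36 cell cycle genes 33 have a log2 fold change below 0.

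Genes of lymphoid and resting T cells had low HFD values as a group, and no member was called. Of 18 tested, 16 had a log2 fold change below 0, 7 reached an unadjusted p under 0.05 with lower HFD values (38.9%, against 4.79% of all genes) and 0 with higher values. The median log2 fold change was -0.73. The count of 7 became 2 without HFD replicate 2, 3 without NCD replicate 1 and 3 with voom, while the median ranged from -1.12 to -0.47 over the alternatives, with the value nearest 0 without HFD replicate 2. The homing receptor gene Ccr7 had 5.63 and 7.84 CPM with HFD, against 47.5, 43.2 and 63.7 CPM with NCD (log2 fold change -2.91 ± 0.84 SE, adjusted p = 0.248). Both HFD libraries were within the 4.82 to 301 CPM of the other 20 VAT libraries. Satb1, a chromatin organiser, had 5.95 and 14.2 CPM with HFD, against 42.0, 33.2 and 29.6 CPM with NCD (adjusted p = 0.261). Tcf7 had 5.63 and 11.1 CPM with HFD, against 32.0, 30.2 and 14.2 CPM with NCD (adjusted p = 0.418). Il7r, the IL-7 receptor gene, ran the other way, with 862 and 939 CPM with HFD, against 748, 751 and 546 CPM with NCD (adjusted p = 0.532).

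The B cell marker sum was also lower with HFD, at 734 to 812 CPM, against 890 to 7910 CPM with NCD, and B cells express Ccr7. Of 11 B cell markers tested, 7 had a log2 fold change below 0 and 4 above 0. Igkc had 11 and 15 counts with HFD, against 9, 9214 and 2045 counts with NCD. The heavy-chain gene Ighm had 2133 and 3181 counts with HFD, against 4779, 26882 and 7236 counts with NCD. NK and CD8 T cell markers summed to 122 to 149 CPM with HFD and 162 to 221 CPM with NCD. The part of B, NK and CD8 T cells in the low HFD values was not tested. The NK receptor gene Klrb1c had 0 and 0 counts with HFD, against 81, 45 and 5 counts with NCD (adjusted p = 0.177).

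Among chemokine receptors the directions split by receptor. Of 15 tested, 4 reached an unadjusted p under 0.05 with higher HFD values (26.7%, against 4.99% of all genes) and 2 with lower values (13.3%, against 4.79%). The median log2 fold change was -0.01. The higher count was 2 without HFD replicate 2, HFD replicate 3 or NCD replicate 3, and the median ran from -0.32 without HFD replicate 2 to 0.12 without NCD replicate 3. The higher members included Ccr4, Ccr2 and Cxcr6. Ccr4 had 158 and 162 CPM with HFD, against 112, 96.7 and 101 CPM with NCD (log2 fold change 0.63 ± 0.17 SE, adjusted p = 0.169). Cxcr6 had 1454 and 1015 CPM with HFD, against 793, 930 and 716 CPM with NCD (adjusted p = 0.510). The lower members were Ccr7 and Gpr183, an oxysterol receptor that positions cells in lymphoid tissue. Gpr183 had 33.8 and 52.1 CPM with HFD, against 104, 77.3 and 66.5 CPM with NCD (log2 fold change -0.94 ± 0.26 SE, adjusted p = 0.204). Both HFD libraries lay above all NCD libraries for 5 of the 15 receptors (33.3%) and below them for 4 (26.7%). Cxcr3 was among the latter, with 52.3 and 74.6 CPM with HFD, against 142.5, 122.8 and 150 CPM with NCD (adjusted p = 0.576). So was Ccr6, with 22.5 and 31.1 CPM with HFD, against 53.2, 39.1 and 60.6 CPM with NCD (adjusted p = 0.574).

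Proliferation genes had low HFD values in nearly every member, with little support from the test. Of 36 cell cycle genes tested, 33 had a log2 fold change below 0, and for 25 (69.4%) both HFD libraries lay below all NCD libraries, against 13.3% of all genes. The median log2 fold change was -0.70, and the list summed to 2529 and 2513 CPM with HFD, against 3666, 2995 and 3643 CPM with NCD. At an unadjusted p under 0.05 there were 2 members with lower HFD values (5.56%, against 4.79% of all genes) and 0 with higher values, and none was called. The count of 2 varied with the fit: it was 23 when only the 5 libraries were fitted, 7 with no filter, 4 with voom, 4 without robust estimation, 1 without HFD replicate 2 and 0 with the replicate number as a block. Mki67, a marker of cycling cells, had 83.9 and 95.1 CPM with HFD, against 147, 120 and 168 CPM with NCD (log2 fold change -0.69 ± 0.40 SE, adjusted p = 0.595). Top2a, which untangles replicated DNA, had 75.4 and 121 CPM with HFD, against 197, 145 and 172 CPM with NCD (adjusted p = 0.581). Outside the list, the spindle gene Tacc3 had 29.1 and 26.3 CPM with HFD, against 64.9, 49.9 and 60.1 CPM with NCD (adjusted p = 0.200). The mitotic kinesin gene Kif15 had 6.57 and 11.4 CPM with HFD, against 31.7, 19.6 and 32.7 CPM with NCD (adjusted p = 0.169). Of 16 p53 targets tested, 3 reached an unadjusted p under 0.05 with higher HFD values (18.8%, against 4.99% of all genes) and 0 with lower values. Trp53inp1, a stress-induced p53 cofactor, had 381 and 365 CPM with HFD, against 253, 228 and 252 CPM with NCD (adjusted p = 0.238).

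**Figure D4:**
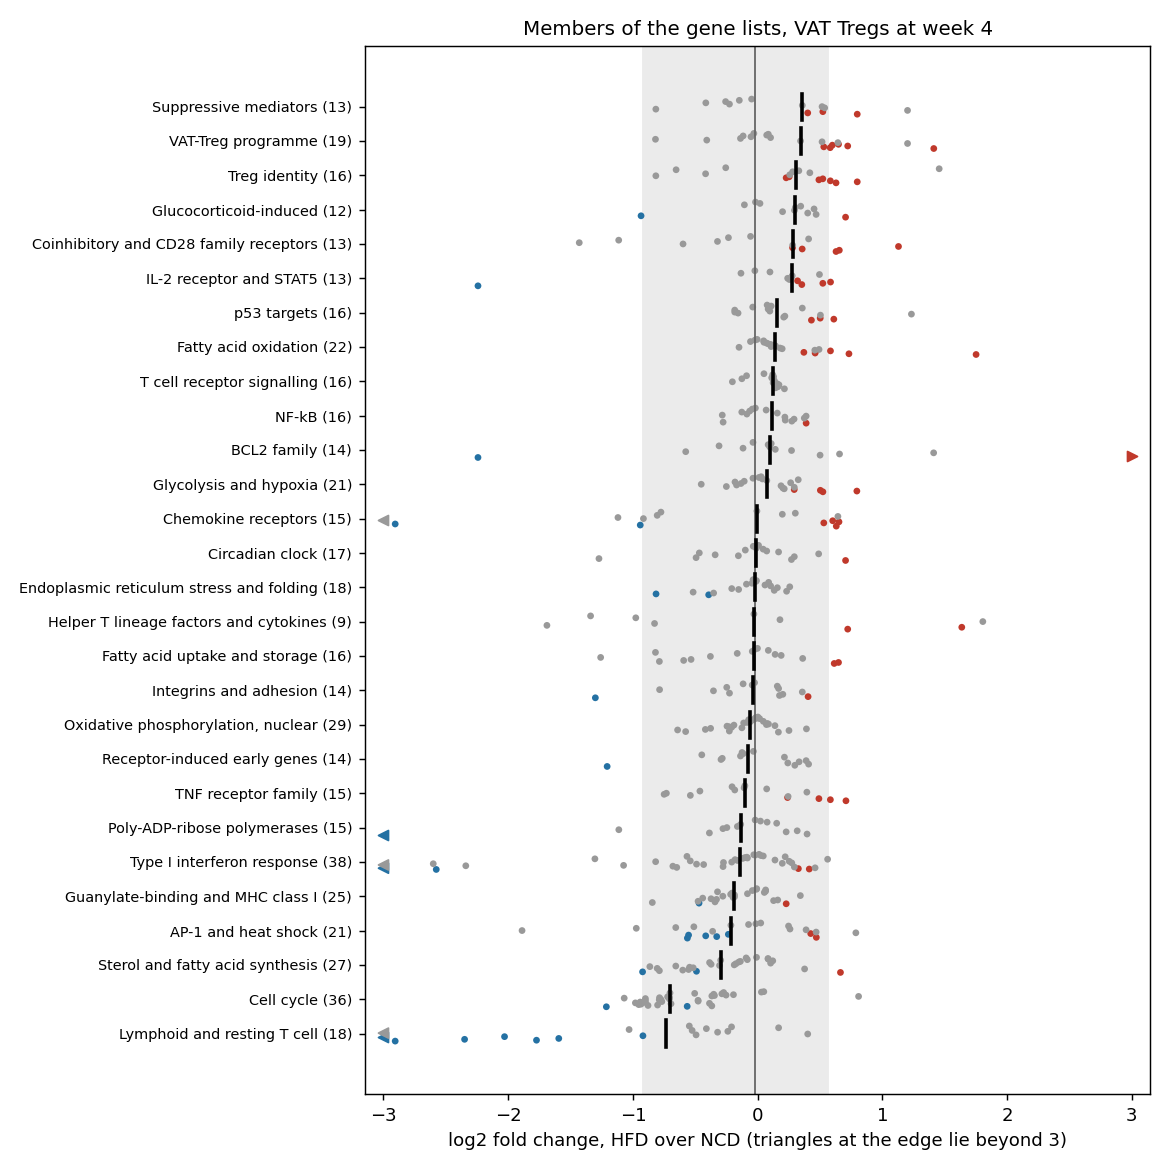
Log2 fold change of HFD over NCD (horizontal axis) for the tested members of 28 gene lists (rows), 1 point per gene, with a bar at each list median, a grey band from the 10th to the 90th percentile of all genes, and red and blue for members at an unadjusted p under 0.05 higher and lower with HFD. The medians of the lymphoid list (-0.73) and the cell cycle list (-0.70) lie furthest below 0.

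Fatty acid oxidation genes had higher HFD values in most members, with Echdc2 called, and sterol and fatty acid synthesis genes had lower values in most members, with none called. Of 22 genes of fatty acid oxidation tested, 6 reached an unadjusted p under 0.05 with higher HFD values (27.3%, against 4.99% of all genes) and 0 with lower values. A log2 fold change above 0 was found for 18 (81.8%, against 47.7% of all genes). The median was 0.14 (0.07 without HFD replicate 3, 0.22 without NCD replicate 1). Cpt1a, which admits long-chain fatty acids to mitochondria, had 302 and 240 CPM with HFD, against 141, 210 and 138 CPM with NCD (log2 fold change 0.73 ± 0.19 SE, adjusted p = 0.172). Acadvl, the very-long-chain acyl-CoA dehydrogenase, had 242 and 169 CPM with HFD, against 165, 142 and 140 CPM with NCD (adjusted p = 0.305). Acaa2, the thiolase of the pathway, had 194 and 174 CPM with HFD, against 162, 139 and 125 CPM with NCD (adjusted p = 0.374). The 3 genes were higher in both HFD libraries than in all NCD libraries. Of 27 genes of sterol and fatty acid synthesis, 21 had a log2 fold change below 0, and for 11 (40.7%, against 13.3% of all genes) both HFD libraries lay below all NCD libraries. The median log2 fold change was -0.30, with 2 members at an unadjusted p under 0.05 lower (7.41%, against 4.79% of all genes) and 1 higher. With 1 library dropped, the lower count ran from 0 (HFD replicate 2, or NCD replicate 3) to 6 (NCD replicate 2), and the median ran from -0.40 (NCD replicate 2) to -0.12 (NCD replicate 3).

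Within sterol synthesis, Sqle, the squalene epoxidase, had 80.1 and 78.4 CPM with HFD, against 119, 91.1 and 139 CPM with NCD (adjusted p = 0.529). Hmgcs1, which makes the substrate of sterol synthesis, had 160 and 160 CPM with HFD, against 241, 188 and 299 CPM with NCD (adjusted p = 0.519). Elovl6, a fatty acid elongase, ran the other way, with 94.2 and 74.4 CPM with HFD, against 62.0, 43.2 and 53.9 CPM with NCD (adjusted p = 0.238). Lipid storage genes with high HFD values were Dgat1, which makes triglyceride, and Hilpda, which blocks its breakdown. Dgat1 had 1282 and 1219 CPM with HFD, against 714, 914 and 766 CPM with NCD (adjusted p = 0.477). Over the 16 uptake and storage genes tested, the median log2 fold change was -0.03, and it ran from -0.28 without HFD replicate 3 to 0.10 without NCD replicate 3.

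Of 21 genes of glycolysis and hypoxia tested, 4 reached an unadjusted p under 0.05 with higher HFD values (19.0%, against 4.99% of all genes) and 0 with lower values. The median log2 fold change was 0.07. Hif1a, the hypoxia-induced transcription factor, had 564 and 459 CPM with HFD, against 387, 368 and 327 CPM with NCD (adjusted p = 0.305). Egln3, an oxygen sensor that HIF induces, had 239 and 208 CPM with HFD, against 122, 121 and 144 CPM with NCD (adjusted p = 0.273). Slc2a3, a glucose transporter, had 322 and 342 CPM with HFD, against 265, 218 and 209 CPM with NCD (log2 fold change 0.52 ± 0.14 SE, adjusted p = 0.172). Nuclear genes of oxidative phosphorylation did not share this order, with 0 of 29 at an unadjusted p under 0.05 in either direction and a median of -0.06.

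Interferon genes were close to the background at an unadjusted p under 0.05, with lower HFD values in most members. Of 38 type I interferon response genes tested, 2 reached an unadjusted p under 0.05 with higher HFD values and 2 with lower values. These are 5.26% each, against 4.99% of all genes higher and 4.79% lower, and the median log2 fold change was -0.14. A log2 fold change above 0 was found for 34.2% of them, against 47.7% of all genes, and for 26.3% both HFD libraries lay below all NCD libraries, against 13.3% of all genes. Irf7, a regulator of the response, had 17.8 and 18.5 CPM with HFD, against 29.7, 22.4 and 33.5 CPM with NCD (adjusted p = 0.536). Oas3, an antiviral enzyme gene, had 0.939 and 3.54 CPM with HFD, against 19.0, 12.3 and 10.3 CPM with NCD (log2 fold change -2.58 ± 0.58 SE, adjusted p = 0.0868). Whether its reads are shared with other Oas genes was not tested. Ifnar1, a chain of the interferon receptor, had 389 and 455 CPM with HFD, against 320, 287 and 344 CPM with NCD (adjusted p = 0.261). Guanylate-binding and MHC class I genes had a median of -0.19 and 1 of 25 at an unadjusted p under 0.05 in each direction (4%, against 4.99% of all genes higher and 4.79% lower). Of these 25, both HFD libraries lay below all NCD libraries for 8 (32%, against 13.3% of all genes) and above them for 0.

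Of 21 AP-1 and heat shock genes, 2 reached an unadjusted p under 0.05 with higher HFD values (9.52%, against 4.99% of all genes), the AP-1 subunits Fosl2 and Junb. With lower values there were 5 (23.8%, against 4.79% of all genes), all of them chaperones. The lower count was 1 to 4 with 1 library dropped, the lowest without NCD replicate 3, and 2 without HFD replicate 2 and also without HFD replicate 3. Other early genes of the list, such as Ier2 (log2 fold change -0.66) and Atf3 (-0.51), lay below 0 and did not pass. Hsp90aa1 had 113 and 109 CPM with HFD, against 118, 191 and 184 CPM with NCD (adjusted p = 0.363). Junb had 12230 and 14100 CPM with HFD, against 8695, 9206 and 11510 CPM with NCD (adjusted p = 0.486). Atf4, which drives the integrated stress response, had 228 and 190 CPM with HFD, against 274, 275 and 275 CPM with NCD (log2 fold change -0.39 ± 0.13 SE, adjusted p = 0.312). Mitochondrial genes took 0.898 and 0.993% of counts with HFD and 0.968, 0.940 and 1.07% with NCD, and ribosomal protein genes took 1.80 and 1.81% with HFD and 2.02, 2.25 and 2.29% with NCD. The part of RNA quality in these values was not tested.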

How the data were processed

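The deposited table holds raw counts per gene symbol, which the authors made with STAR 2.7.3a and featureCounts on mm10, per the submitters' processing notes. Not given in the sources used here: annotation release, strand setting and handling of multi-mapping reads. Values of near-identical or overlapping genes are therefore uncertain. Libraries were assigned by title, and 0 columns lacked a sample. The 25 VAT libraries of 9 groups were fitted together in R 4.3.3 with edgeR 4.0.16 (TMM, filterByExpr by group, robust quasi-likelihood fit), which tested 14164 of 55011 symbols. The contrast was HFD minus NCD at week 4, and the means of the other 20 libraries did not enter it. These 20 entered the filter, the normalization and the estimate of spread. Their CPM ranges, which mix weeks and diets, are given as description without a test. The threshold for a call was 0.05 after Benjamini-Hochberg adjustment over the genes tested. The SE is the log2 fold change divided by the square root of F, in absolute value. CPM used TMM-scaled library sizes. Floors of 3 counts cover counting error only, and reads carried no molecular identifiers.

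Gene positions came from GENCODE M21 and promoters from RefSeq. Named genes were those called, the 12 higher and 12 lower with the smallest p (mean log2 CPM of at least 4, absolute log2 fold change of at least 0.5, no overlap between diets), the 3 members of each list with the smallest p, and a set of Treg genes. Not all of these are described, some list members are not reported here, and further list members were added after their values were seen. The 28 pathway and 9 marker lists, and the libraries compared, were chosen with earlier results of these data known. The fitting was tested on simulated counts. Alternatives were RLE, no filter, a stricter filter, DESeq2 1.42.0, voom (limma 3.58.1), only the 5 libraries, no robust estimation, a block for the replicate number, and dropping each library in turn.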

Additional observations from a re-analysis of the deposited data

How the results depend on the processing

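The count of called genes, 3, was 115 with no filter (62 higher and 53 lower with HFD), 61 with DESeq2 (38 and 23), 34 when only the 5 libraries were fitted (26 and 8), 8 with voom (8 and 0), 5 under the stricter filter, log2 CPM averaging 3 or more (3 and 2) and 2 with RLE (2 and 0). Leaving out 1 library gave 0 to 6 genes, 0 to 3 higher and 0 to 3 lower. Where no gene was called, edgeR gave unadjusted p under 0.05 for 463 higher and 462 lower genes without HFD replicate 2, and for 655 and 644 without NCD replicate 1. Over the libraries left out, these counts ranged from 463 to 655 higher and from 462 to 874 lower. Genes lower at an unadjusted p under 0.05 numbered 1144 of 37419 tested with no filter and 434 of 9290 tested under the stricter filter. The main fit gave 678 of 14164. When only the 5 libraries were fitted, 11985 genes were tested, so the counts of called genes also rest on different numbers of genes. A single HFD library left over was given the spread of the remaining groups.

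With the replicate number as a block 5 genes were called, 3 higher and 2 lower: Igkv8-30, Ctla4, Echdc2, Lamp2 and Parp8. The labels give the numbers no shared animal or batch. Deviations from the group means had r of 0.074 for number 2 and -0.038 for number 3 over 9115 genes, but with 2 HFD libraries these deviations mirror each other, so they cannot test a pairing.

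No gene selected by the rule for named genes changed sign under any alternative that tested it. Genes outside the rule, such as Prdm1 and Il5, were not in this check. Of 364 recomputed list medians 33 moved beyond their tolerance, and 22 changed sign, in 9 lists. Fold changes were weakly related to GC content (Spearman's rho -0.053) and transcript length (0.042) over 7684 genes, which are not independent replicates. With 2 and 3 libraries, depths of 3319873 to 5869790 counts and floors of 0.508 to 0.939 CPM, the number and depth of libraries limit the precision.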

Other observations

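Clock and glucocorticoid-responsive genes that the report does not describe include Per1 and Sgk1. Per1, a clock gene that glucocorticoids induce, had 156 and 163 CPM with HFD, against 86.4, 96.0 and 111 CPM with NCD (edgeR adjusted p = 0.238). Sgk1, a kinase that glucocorticoids also induce, had 36.6 and 59.2 CPM with HFD, against 107, 74.0 and 95.0 CPM with NCD (adjusted p = 0.250). Of 17 clock genes tested, 1 reached an unadjusted p under 0.05 with higher HFD values (5.88%, against 4.99% of all genes). With lower values there were 0. Of 12 glucocorticoid-induced genes, 1 reached this p in each direction (8.33%, against 4.99% of all genes higher and 4.79% lower). The HFD and NCD libraries did not overlap for 2 clock genes higher with HFD and 2 lower (11.8% each). They did not overlap for 6 glucocorticoid-induced genes higher (50%) and 1 lower (8.33%). Over all genes this share was 13.3% in each direction.

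The integrin gene Itgb1, whose product binds matrix proteins, had 37.9 and 47.8 CPM with HFD, against 80.0, 132 and 106 CPM with NCD (adjusted p = 0.267). Cd44, a hyaluronan receptor gene, had 1707 and 1755 CPM with HFD, against 1352, 1316 and 1256 CPM with NCD (adjusted p = 0.473). Of 14 adhesion genes tested, these were the 2 at an unadjusted p under 0.05, 1 in each direction (7.14%, against 4.99% of all genes higher and 4.79% lower). Il5 reached 62.3 CPM in HFD replicate 2, against 2.78 CPM in HFD replicate 3 and 8.14, 15.1 and 4.19 CPM in the NCD libraries.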
